A study of Homo sapiens with 3 samples.

Results

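The genes described here drive and execute mitosis. They are the kinases and cyclins that start it, the chromosomal passenger complex, the spindle checkpoint, the kinetochore, condensin and the proteins of cytokinesis. The list of 40 genes was chosen by name, with earlier results of these data known. Of the 40 genes, 39 have a row among the 13247 genes of the table. CDK1 is the exception and is not analysed here. All counts come from RNA immunoprecipitation sequencing (RIP-seq), in which an antibody pulls down a protein and its associated RNA is sequenced. The protein was DDX49, an RNA helicase of the DEAD-box family, expressed with a Flag tag by transfection in HHL5, a human liver cell line labelled as wild type and as embryonic liver cells. The cells received OA/PA (2 to 1, 1.5 mM) for 24 h, were cross-linked with ultraviolet light, and gave 1 group of 3 replicate libraries. No input, mock or untreated library was analysed here, so a level joins the abundance of an mRNA in the cells with its recovery alongside DDX49. In these bulk samples fewer cells in mitosis and less mitotic mRNA per cell cannot be told apart. Whether the replicates came from separate cultures is not stated.

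The libraries held 2023133, 1461858 and 1096586 counts in replicates 1, 2 and 3. Levels are given as CPM, the share of a library's counts multiplied by 1000000. A single count was worth 0.494 to 0.912 CPM. DDX49 itself took 3.53%, 4.15% and 5.09% of the counts. Of 18 hepatocyte markers 8 had a row, and the transcription factor CEBPA (1.37 to 1.98 CPM) and the fibrinogen genes FGA and FGB (0 counts) were at or near 0, whereas the urea cycle enzyme CPS1 had 1674 to 1763 CPM. The summed level of these hepatocyte markers was 1676 to 1765 CPM across the libraries. Of 7 biliary markers 6 had a row, with the keratin KRT7 at 5813 ± 143 CPM (SD, n = 3) and a summed level of 5684 to 5975 CPM. Of 8 stellate cell and fibroblast markers 6 had a row, with the filament VIM at 1104 ± 52.5 CPM and the collagen COL3A1 at 42.5 ± 9.59, and a summed level of 1133 to 1235 CPM. Of 6 endothelial markers 2 had a row, ENG at 154 ± 7.58 CPM and CDH5 at 3.07 ± 3.34. The markers KRT19 (biliary), COL1A1 (fibroblast) and CD14, the only one of 5 immune markers with a row, had 0 counts. The part of other cell types in the mitotic levels was not tested.

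Entry into mitosis is driven by CDK1 bound to cyclin B, which phosphatases of the CDC25 family switch on, and by the Polo and Aurora kinases. Kinetochores then join chromosomes to the spindle, the checkpoint holds back the anaphase-promoting complex until all are attached, condensin compacts the chromosomes, and a contractile ring divides the cell. Many of these genes are transcribed late in the cell cycle, through CCAAT boxes bound by NF-Y and through a cell cycle homology motif near the start site that is bound by the MuvB complexes. Proliferating liver cell lines express them, and resting hepatocytes largely do not.

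Promoter sequences were examined for these elements, although no promoter sequence was used to choose the genes. Many genes of this kind are transcribed through them, as stated above, so a high share was foreseen and is no independent finding. The RefSeq promoter table (GRCh38.p14) covers 250 bases before to 50 after each annotated start, and it held 43 promoters for 32 of the 39 genes. It has no entry for AURKA, TPX2, FOXM1, BIRC5, BUB3, TTK and RACGAP1. The cell cycle homology motif was searched as TTTGAA or TTCGAA and the CCAAT box as CCAAT, both on either strand. Other spellings of the homology motif were not searched, so a promoter without a match may still hold one. A homology motif was found in 27 of the 43 promoters (62.8%), against 5742 of all 35116 promoters (16.4%) and 11.8% of the 12791 promoters of table genes whose mean reached 1 CPM. By gene, 25 of the 32 had at least 1 match (78.1%), against 19.5% of all genes in the promoter table. In 16 of the 43 promoters (37.2%) a match began within the last 50 bases before the start, against 2.73% of all promoters. A CCAAT box was found in 28 promoters (65.1%, against 34.6% of all), and 17 held at least 2 (39.5%, against 10.8%). Both motifs occurred together in 19 of the 43 (44.2%, against 6.38%). These shares are descriptions without a test, and a match is not evidence of binding. DNA replication genes held the homology motif in 3 of 56 promoters (5.36%) and a CCAAT box in 31 (55.4%), with at least 2 boxes in 30.4%. The 24 promoters of G1 genes had shares of 4.17%, 41.7% and 29.2% for the same 3 features. Among 147 promoters of other mitotic genes, the closest in function, the shares were 27.9%, 45.6% and 22.4%.

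The 150 bases before the start are shown for 12 genes of the different roles, 5′ to 3′ on the strand of the gene, with matches to either motif in capitals. They were picked to set promoters with a match to the homology motif close to the start beside those with no match in the window.
CCNB1: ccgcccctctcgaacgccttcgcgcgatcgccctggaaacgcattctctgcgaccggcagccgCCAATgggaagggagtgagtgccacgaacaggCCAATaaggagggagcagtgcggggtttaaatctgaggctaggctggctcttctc
CCNB2: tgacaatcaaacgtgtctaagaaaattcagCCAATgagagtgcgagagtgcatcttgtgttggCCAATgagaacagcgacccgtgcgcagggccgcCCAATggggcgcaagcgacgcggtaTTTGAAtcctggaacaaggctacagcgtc
CCNA2: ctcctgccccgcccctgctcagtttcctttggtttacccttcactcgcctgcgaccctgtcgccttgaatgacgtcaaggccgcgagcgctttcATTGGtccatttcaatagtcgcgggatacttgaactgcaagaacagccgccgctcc
PLK1: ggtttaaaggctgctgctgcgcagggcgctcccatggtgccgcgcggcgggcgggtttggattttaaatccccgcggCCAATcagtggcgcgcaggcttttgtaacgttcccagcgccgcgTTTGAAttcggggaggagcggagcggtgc
INCENP: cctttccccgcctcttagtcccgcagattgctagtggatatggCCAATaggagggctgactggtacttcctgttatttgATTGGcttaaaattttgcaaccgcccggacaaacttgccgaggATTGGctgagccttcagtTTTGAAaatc
AURKB: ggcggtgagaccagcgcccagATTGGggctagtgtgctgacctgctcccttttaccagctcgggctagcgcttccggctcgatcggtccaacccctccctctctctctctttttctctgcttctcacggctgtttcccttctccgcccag
CDC20: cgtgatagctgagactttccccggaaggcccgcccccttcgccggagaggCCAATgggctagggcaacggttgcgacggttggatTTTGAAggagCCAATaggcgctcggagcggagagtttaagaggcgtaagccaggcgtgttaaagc
BUB1B: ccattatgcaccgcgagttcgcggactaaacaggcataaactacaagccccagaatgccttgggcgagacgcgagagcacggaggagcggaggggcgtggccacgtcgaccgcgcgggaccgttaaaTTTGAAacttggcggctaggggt
SPC25: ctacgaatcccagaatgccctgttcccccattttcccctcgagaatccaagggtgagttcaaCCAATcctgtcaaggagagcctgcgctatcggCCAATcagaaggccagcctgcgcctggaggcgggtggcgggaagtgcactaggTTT
NCAPD2: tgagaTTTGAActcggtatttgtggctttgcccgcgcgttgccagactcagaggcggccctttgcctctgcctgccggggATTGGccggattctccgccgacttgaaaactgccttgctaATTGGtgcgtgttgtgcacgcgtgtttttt
MKI67: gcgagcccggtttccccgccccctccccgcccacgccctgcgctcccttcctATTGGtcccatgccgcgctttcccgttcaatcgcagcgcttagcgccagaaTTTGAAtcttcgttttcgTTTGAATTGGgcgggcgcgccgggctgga
ANLN: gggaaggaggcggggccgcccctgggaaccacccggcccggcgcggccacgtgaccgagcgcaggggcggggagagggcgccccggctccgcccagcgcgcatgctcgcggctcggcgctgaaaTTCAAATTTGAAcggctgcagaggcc
The windows lie in GRCh38.p14 as follows: CCNB1 at chr5:69167000-69167149 (plus strand), CCNB2 at chr15:59104996-59105145 (plus strand), CCNA2 at chr4:121823884-121824033 (minus strand), PLK1 at chr16:23678739-23678888 (plus strand), INCENP at chr11:62123861-62124010 (plus strand), AURKB at chr17:8210250-8210399 (minus strand), CDC20 at chr1:43358831-43358980 (plus strand), BUB1B at chr15:40160919-40161068 (plus strand), SPC25 at chr2:168890431-168890580 (minus strand), NCAPD2 at chr12:6493952-6494101 (plus strand), MKI67 at chr10:128126424-128126573 (minus strand), ANLN at chr7:36389712-36389861 (plus strand). CCNB2, PLK1 and BUB1B share the plainest arrangement, with the homology motif at 29, 29 and 23 bases before the start. In CCNB2 the last 3 CCAAT boxes are spaced by 33 bases each, and in CCNB1 and SPC25 the last pair by 32 bases. ANLN has a pair of abutting homology motifs on opposite strands, and in MKI67 the match at 29 bases before the start overlaps a CCAAT box on the opposite strand. The match of SPC25 begins 3 bases before the start and runs past the printed window. In CCNB1, CCNA2 and AURKB neither TTTGAA nor TTCGAA was found anywhere in the 300 bases. That says only that these letters are not there, and a homology motif in another spelling would have been missed. NCAPD2 has its match to the searched spellings farther away, at 145 bases before the start, with CCAAT boxes at 70 and 30 in the printed window.

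**Figure D1:**
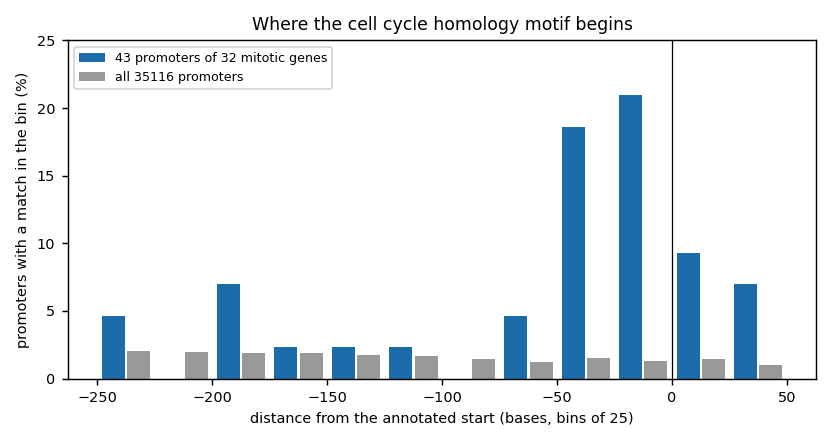
Share of promoters (y axis, percent) in which the cell cycle homology motif begins in each bin of 25 bases (x axis, distance from the annotated start). Blue bars are the 43 promoters of 32 mitotic genes and grey bars all 35116 promoters. The blue bars are highest at 50 to 25 and at 25 to 0 bases before the start (18.6% and 20.9%), where the grey bars are at 1.51% and 1.26%.

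Mitotic mRNAs were counted in every library, with AURKB in replicate 3 as the single count of 0. All 39 had a mean of at least 1 CPM, 38 of at least 10 CPM, 18 of at least 100 CPM and 9 of at least 300 CPM. Their median levels were 84.0, 84.8 and 88.5 CPM in replicates 1, 2 and 3, beside 27.7, 26.7 and 25.5 CPM for the 10815 genes whose mean reached 1 CPM. On the log2(CPM + 1) scale the median of the mitotic genes lay 1.65 ± 0.09 (SD, n = 3) above that of the 10815 genes. The mitotic genes were chosen with earlier results of these data known, so the distance is a description without a test. The distance depends on the genes it is measured from, and it was 0.87 ± 0.08 against genes of at least 10 CPM and 2.29 ± 0.07 against the whole table. CPM is not scaled by transcript length, for which no table was at hand, so levels in CPM are to be read across libraries for 1 gene, and an order of genes or lists by CPM is one of counts, not of transcripts. Together the 39 genes took 0.800% of the counts in replicate 1 (95% Wilson interval 0.788 to 0.812), 0.770% in replicate 2 (0.756 to 0.785) and 0.733% in replicate 3 (0.717 to 0.749). Intervals cover counting error only.

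**Figure D2:**
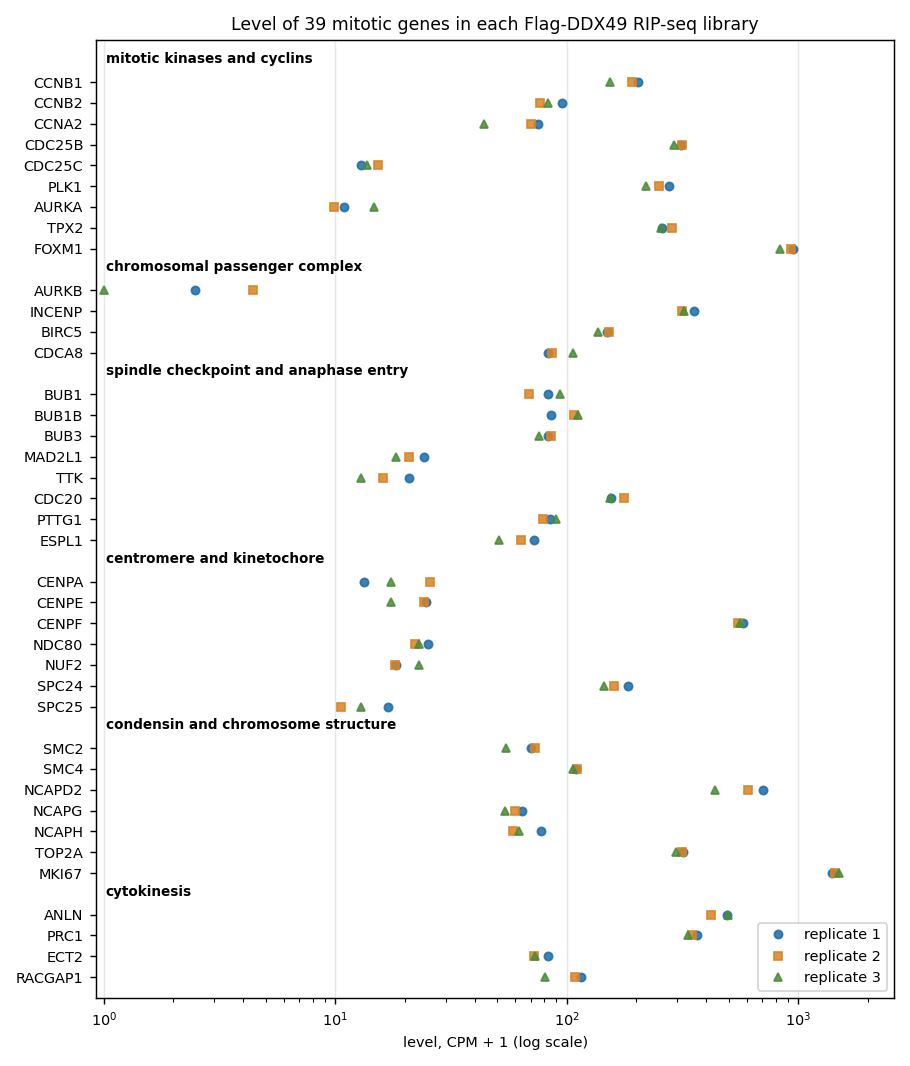
Level of each of the 39 genes in the 3 libraries (x axis, CPM + 1 on a log scale, 1 row per gene, grouped by role). AURKB, with 3, 5 and 0 counts, has the widest spread and replicate 3 at the left edge, and levels range from a mean of 1.63 CPM (AURKB) to 1446 CPM (MKI67).

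Whether the replicates differed was tested for each gene by comparing its 3 counts with the 3 library totals (chi-square test), with Benjamini-Hochberg adjustment over the 8633 genes whose counts summed to 30 or more. The test compares 3 libraries of 1 group and says nothing about a condition. Of the 38 mitotic genes tested, 5 passed at an adjusted p of 0.05 (13.2%), where 19.6% of all genes tested did. These are CCNB1, CCNA2, FOXM1, NCAPD2 and ANLN. The first 4 were highest in replicate 1 and lowest in replicate 3, while ANLN was lowest in replicate 2. Of all genes tested, 778 (9.01%) passed and were lowest in replicate 3, whichever replicate was highest, beside 4 of the 38 mitotic genes. The coefficient of variation had a median of 11.4% over the 38 mitotic genes tested and of 16.7% over all genes tested. The median level of all genes tested was lower (40.4 against 87.4 CPM). Below 10% were 18 of the 38 mitotic genes and 2352 of all 8633 genes tested.

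**Figure D3:**
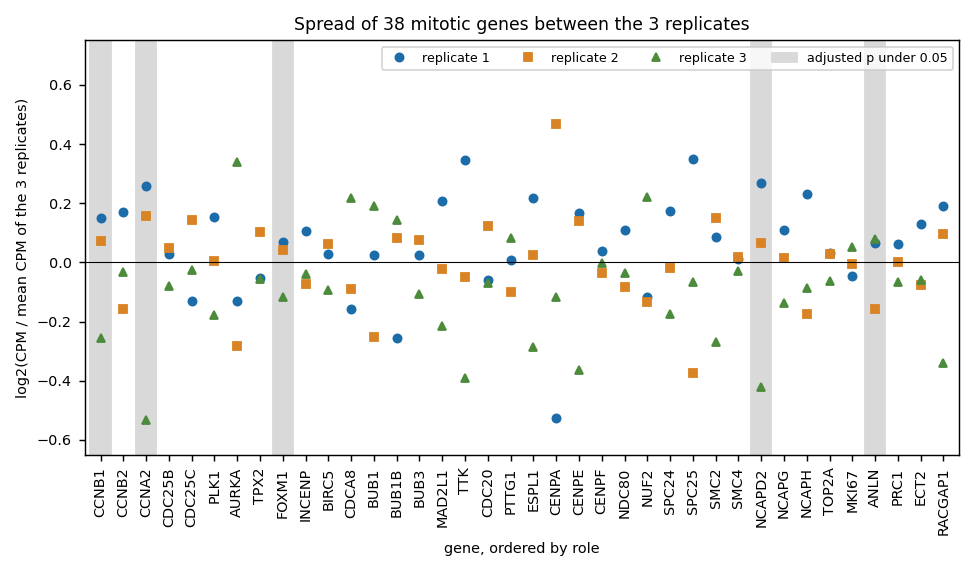
Log2 ratio of each replicate's CPM to the gene's mean (y axis) for the 38 genes tested (x axis, ordered by role). Grey bands mark the 5 genes with an adjusted p under 0.05. In 4 of the 5 replicate 3 is the lowest point.

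Among the mitotic kinases, cyclins and their activators, 9 genes had a median of 181.6 CPM, and 3 of them differed between replicates. That is 33.3% of 9 genes, beside 19.6% of all genes tested. CCNB1, the cyclin B1 that carries CDK1 into mitosis, had 202, 191 and 152 CPM in replicates 1, 2 and 3. CCNA2, the cyclin A2 of S phase and early mitosis, had 74.1, 69.1 and 42.9 CPM. CCNB2, the second B-type cyclin, had 94.4, 75.2 and 82.1 CPM. Both CCNB1 and CCNA2 were lowest in replicate 3, with adjusted chi-square p-values of 0.0459 and 0.0258, and CCNB2 did not pass (0.296). Without replicate 3 neither passed (0.732 and 0.802), and without replicate 1 they had 0.140 and 0.0714. With TMM-scaled totals CCNB1 no longer passed (0.0971), nor with totals that leave out DDX49 (0.0658). Of the counts of these 3 cyclins, CCNA2 took 20.0%, 20.6% and 15.5% in replicates 1, 2 and 3, with Wilson intervals that overlap (17.3 to 23.0, 17.3 to 24.4 and 11.8 to 20.0). The CCNA2 span shares 578 bases with EXOSC9, which had 96, 60 and 43 counts.

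FOXM1, the transcription factor of late cell cycle genes, had 947, 929 and 832 CPM. It was lower in replicate 3 than in the other 2 libraries, with an adjusted p of 0.0288 in the chi-square test, but its highest level was only 1.14 times its lowest. The call was lost with TMM-scaled totals (0.133), with DESeq2 size factors (0.190), without DDX49 in the totals (0.0654), without replicate 1 (0.0906) and without replicate 3 (0.803). FOXM1 shares 910 bases of its span with RHNO1 and 2112 with ITFG2. The labels and headers do not say how reads of overlapping genes or of either strand were assigned. ITFG2 had 46, 36 and 30 counts and RHNO1 52, 26 and 36, few beside the 1916, 1358 and 912 of FOXM1. PLK1, the Polo kinase of spindle assembly, had 275, 248 and 219 CPM and did not pass (adjusted p = 0.0546 in the chi-square test). It passed with a summed count minimum of 100 (0.0495) and without replicate 2 (0.0250). Of the phosphatase genes that activate CDK1, CDC25B had 310, 315 and 288 CPM, with a coefficient of variation of 4.67%. CDC25C had 11.9, 14.4 and 12.8 CPM from 24, 21 and 14 counts, too few to call it steady. TPX2, the spindle protein that activates Aurora A, had 256, 285 and 255 CPM. AURKA, the Aurora A kinase of centrosomes, had 20, 13 and 15 counts, or 9.89, 8.89 and 13.7 CPM. None of CDC25B, CDC25C, TPX2 and AURKA passed the chi-square test, with adjusted p-values of 0.364 to 0.880.

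The chromosomal passenger complex joins the Aurora B kinase to a scaffold and 2 targeting subunits, and corrects faulty attachments of chromosomes to the spindle. The scaffold INCENP had 354, 313 and 320.1 CPM, survivin (BIRC5) 148, 151 and 136 CPM, and borealin (CDCA8) 81.6, 85.5 and 106 CPM. None of the 3 passed the test between replicates, where 19.6% of all genes tested did, and 3 genes say little beside that share. Their adjusted chi-square p-values were 0.193, 0.712 and 0.207. The kinase gene AURKB had 3, 5 and 0 counts, or 1.48, 3.42 and 0 CPM. A count of 0 in replicate 3 allows up to 2.74 CPM (3 counts of the total). AURKB had too few counts for the chi-square test, and its span on chromosome 17 (8204731 to 8210575, GRCh38) overlaps no other gene of the reference. Whether few AURKB reads were recovered or reads were lost when the authors counted them cannot be told apart from this table, which also holds no row for CDK1. AURKB took 0.253%, 0.619% and 0% of the complex's counts in replicates 1, 2 and 3, with Wilson intervals of 0.0862 to 0.742, 0.265 to 1.44 and 0 to 0.620. AURKC, the germ cell relative of AURKB, had 0, 1 and 0 counts.

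The spindle checkpoint and the step to anaphase were represented by 8 genes with a median of 80.6 CPM. Between replicates 0 of the 8 passed the chi-square test at an adjusted p of 0.05 (1 at an unadjusted p under 0.05). Of all 8633 genes tested, 19.6% passed and 2956 had an unadjusted p under 0.05. The checkpoint kinase BUB1 had 82.1, 67.7 and 92.1 CPM, and its relative BUB1B (BUBR1), part of the inhibitor of the anaphase-promoting complex, had 84.5, 107 and 111 CPM. BUB3, which carries both to kinetochores, had 82.1, 84.8 and 74.8 CPM. CDC20, the activator that the checkpoint restrains, had 154, 175 and 153 CPM. MAD2L1, which binds CDC20, had 23.2, 19.8 and 17.3 CPM, and the upstream kinase TTK (MPS1) had 19.8, 15.05 and 11.9 CPM. Both MAD2L1 and TTK rest on few counts, 19 to 47 and 13 to 40, and neither passed (adjusted chi-square p = 0.671 and 0.392). Securin (PTTG1), which holds separase inactive, had 84.0, 78.0 and 88.5 CPM, and separase (ESPL1), which cuts cohesin, had 71.2, 62.2 and 50.2 CPM. Securin took 54.1%, 55.6% and 63.8% of the counts of this pair, with overlapping Wilson intervals (48.6 to 59.6, 48.8 to 62.2 and 55.9 to 71.0).

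The 7 centromere and kinetochore genes had a median of 21.1 CPM, and 2 of them reached 100 CPM. CENPF, a large protein of the outer kinetochore, had 575, 546 and 559 CPM and a coefficient of variation of 2.64%. SPC24 of the NDC80 complex, which binds microtubules, had 182, 159 and 143 CPM. The other subunits of that complex had low counts, with NDC80 at 24.2, 21.2 and 21.9 CPM, NUF2 at 17.3, 17.1 and 21.9 CPM and SPC25 at 15.8, 9.58 and 11.9 CPM. The split within the complex was alike in the libraries, with SPC24 at 76.1%, 76.9% and 72.0% of its counts and overlapping Wilson intervals (72.1 to 79.7, 71.8 to 81.3 and 65.7 to 77.6). The kinesin CENPE had 23.7, 23.3 and 16.4 CPM. CENPA, the histone variant that marks centromeres, had 12.4, 24.6 and 16.4 CPM, the widest spread of the 38 genes tested (coefficient of variation 35.1%). With 25, 36 and 18 counts it did not pass (adjusted chi-square p = 0.0903). Of the 7 genes of the group 0 passed and 2 had an unadjusted p under 0.05. Of all 8633 genes tested, 19.6% passed and 2956 had an unadjusted p under 0.05. The SPC25 span overlaps NOSTRIN by 3994 bases, and NOSTRIN had 0 counts in each library.

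Condensin and chromosome structure held the clearest difference between replicates. Condensin I is a ring of the ATPases SMC2 and SMC4 with 3 further subunits. NCAPD2, its HEAT-repeat subunit, lies on chromosome 12 at 6494102 to 6531955 (GRCh38) and had 1415, 889 and 476 counts. Its level was 699, 608 and 434 CPM, highest in replicate 1 and 1.61 times lower in replicate 3, with an adjusted p of 4.96e-16 in the chi-square test. It passed under all 9 alternatives, with adjusted p-values of 4.22e-17 to 0.0281, the last without replicate 3. The other subunits did not pass: SMC4 had 109, 109 and 106 CPM, SMC2 68.7, 71.8 and 53.8, NCAPG 62.8, 58.8 and 52.9, and NCAPH 76.1, 57.5 and 61.1. NCAPD2 took 68.9% of the condensin I counts in replicate 1 (95% Wilson interval 66.8 to 70.8), 67.1% in replicate 2 (64.6 to 69.6) and 61.3% in replicate 3 (57.9 to 64.7). The interval of replicate 3 overlaps that of replicate 2 by a narrow margin and lies below that of replicate 1. The span of NCAPD2 holds the small Cajal body RNA gene SCARNA10 (330 bases at 6510222 to 6510551), whose reads were not analysed here. Its part in the NCAPD2 counts was not tested.

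**Figure D4:**
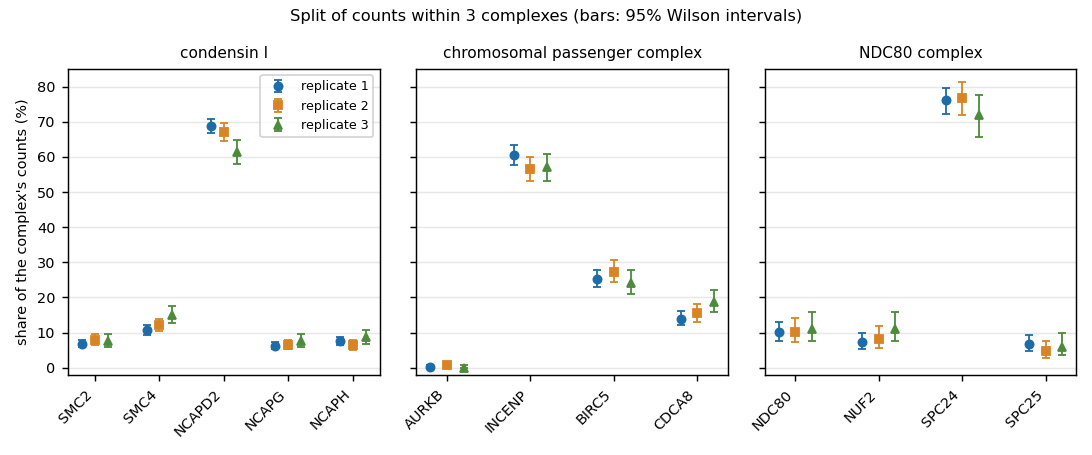
Share of each subunit in the counts of its complex (y axis, percent) in the 3 replicates, with 95% Wilson intervals, for condensin I, the chromosomal passenger complex and the NDC80 complex. Shares are not scaled by transcript length and are to be read across replicates for 1 gene. NCAPD2 goes from 68.9% in replicate 1 to 61.3% in replicate 3, and AURKB stays under 1% in each library.

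Of the other chromosome proteins, TOP2A, the topoisomerase that untangles sister chromatids, had 315, 315 and 295 CPM. MKI67, the Ki-67 protein that coats mitotic chromosomes and is the usual marker of cycling cells, had 1399, 1439 and 1500.1 CPM. Both were steady, with coefficients of variation of 3.66% and 3.51%, and neither passed the chi-square test (adjusted p = 0.724 and 0.200). MKI67 did pass with TMM-scaled totals (0.0176) and with DESeq2 size factors (0.00812), highest in replicate 3. SMC4 varied least of the 39 genes, with a coefficient of variation of 1.80%.

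The 4 cytokinesis genes had a median of 224 CPM. ANLN, the anillin that organises the contractile ring, had 491, 421 and 496 CPM, lower in replicate 2 than in the other libraries, which were alike (adjusted p = 0.0269 in the chi-square test). Without replicate 2 the difference was gone (0.928), and without replicate 1 it did not pass (0.0638). ANLN shares 496 bases with MATCAP2 at its start. PRC1, which bundles the microtubules of the spindle midzone, had 363, 348 and 332 CPM. RACGAP1, the GTPase-activating subunit of centralspindlin, had 115, 107 and 79.3 CPM and did not pass (adjusted chi-square p = 0.0576), except without replicate 2 (0.0255). ECT2, the exchange factor that it recruits to activate RhoA, had 82.1, 71.1 and 72.0 CPM. PRC1 and ECT2 did not pass (0.537 and 0.597).

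Position and annotation of the 39 genes are described next. The 39 genes lie on 17 chromosomes, with at most 4 on any of them, so they form no cluster. The spans of 17 overlap another gene of the reference, 8 of them a protein-coding one, and those of 22 overlap none. A small nucleolar or Cajal body RNA gene lies within 4: CCNB1, BUB1, NCAPD2 and ECT2. Overlaps were not counted for all genes, so these numbers have no background beside them. In the annotation columns of the authors' deposited table, the pathway named cell cycle is given for 14 of the 39 genes and for 103 others, whose mean levels had medians of 82.1 and 49.4 CPM. A kinetochore term is given for 16 of the 39 and for 97 others, with medians of 80.6 and 40.5 CPM.

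Other genes of the mitotic pathway, from lists that hold none of the 39, included several with 0 or 1 counts in each library. The genes named from each list are among its highest or lowest in CPM, an order that is not per length. Of 117 listed genes 112 had a row, with a median of 37.9 CPM, and 22 of these had at least 100 CPM and 5 less than 1 CPM. Of the 95 that could be tested between replicates, 15 passed the chi-square test (15.8%, against 19.6% of all genes). Cohesin, which holds sister chromatids together, had 12 genes with a median of 100.3 CPM, among them SMC1A (1505 ± 35.2 CPM, SD, n = 3 here and below) and RAD21 (856 ± 57.7). The list of B-MYB and the DREAM complex, regulators of cell cycle transcription, held MYBL2 (592 ± 39.4), TFDP1 (130.1 ± 23.9) and LIN37, with 1 count in each library. In the list of CENPA loading and the inner centromere, CENPB had 363 ± 13.3 CPM and the CENPA chaperone HJURP 72.2 ± 19.3, and the median of its 18 genes was 13.7 CPM. The outer kinetochore list had a median of 27.2 CPM, with ZWINT at 97.4 ± 12.7. For the anaphase-promoting complex and its partners the median was 31.5 CPM, with the ubiquitin-conjugating enzyme UBE2S at 229 ± 13.4. Of condensin II, NCAPD3 had 106 ± 2.73 CPM and NCAPH2 63.3 ± 14.4, while NCAPG2 had 0 counts in all 3 libraries. The kinase MASTL, which restrains the phosphatase opposing CDK1, also had 0 counts, and the mitotic entry factor CDCA3 had 0, 0 and 1. For these genes too, low recovery and reads lost in the authors' counting cannot be told apart.

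Beside these, 50 DNA replication genes had a median of 56.2 CPM and 21 of them at least 100 CPM. MCM3 and MCM7 of the replicative helicase had 699 ± 27.9 and 534 ± 53.3 CPM, and ORC2 and ORC6 of the origin recognition complex were below 1 CPM. The 19 G1 cyclins, kinases and inhibitors had a median of 63.5 CPM, with cyclin D1 (CCND1) at 293 ± 5.54 and the inhibitor gene CDKN2A at 284 ± 23.0. Between replicates 7 of 45 replication genes and 1 of 16 G1 genes passed the test (15.6% and 6.25%, against 19.6% of all genes).

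**Figure D5:**
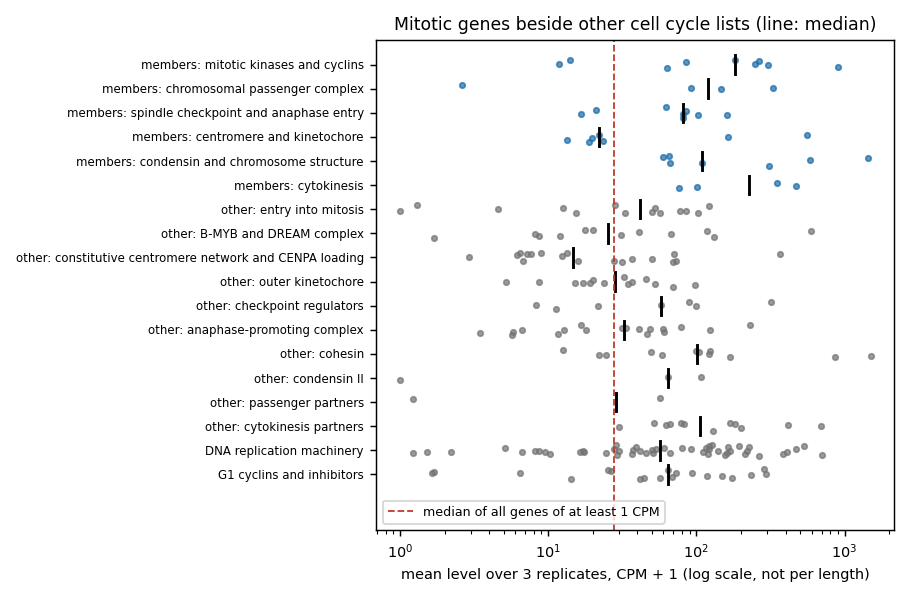
Mean level of each gene over the 3 replicates (x axis, CPM + 1 on a log scale, not per length), by list, with the 39 mitotic genes by role in blue and other cell cycle lists in grey. Black lines are list medians, and the dashed line is the median of all 10815 genes of at least 1 CPM (27.0 CPM). The kinetochore members have their median below that line (21.1 CPM), and the other 5 roles above it.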

How the data were processed

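Whole-number counts per gene for 3 RIP-seq libraries were deposited by the authors as 1 table, per the file headers, keyed by Ensembl gene identifier. The submitters' processing notes name CASAVA 1.4 and hg38. Aligner, counter, strand setting and handling of shared reads: not given in the sources used here. Another 3 per-sample columns, normalized with edgeR per the file headers, were not used.

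Replicate numbers came from the labels. Counts were divided by library totals (CPM), with a pseudocount of 1 CPM for log2 values. The chi-square test with Benjamini-Hochberg adjustment was tested on simulated counts that varied by counting error alone. Of 100 genes raised 2-fold in replicate 3 it called 66, and of 100 raised 4-fold 99, with 23 unchanged genes called. Such counts cannot show how the test behaves where replicates vary more. The common coefficient of variation of these libraries (edgeR, genes of at least 1 CPM) was 14.6%. As the series has 1 group, edgeR's quasi-likelihood test had nothing to compare, and edgeR (TMM factors 1.02, 0.996 and 0.983) and DESeq2 served for alternative scalings. Other alternatives were count minimums, totals without DDX49, pseudocounts, backgrounds, promoter windows and leaving out each replicate. Levels per coding length, planned where lengths were at hand, were left out. Members, lists and roles were chosen with earlier results of these data known. Every member in the table is named, and of each pathway or comparison list at most the highest 2 and lowest 2 genes by mean CPM. Marker lists are described by at most their highest 2 genes and by genes at 0, and 1 marker is not reported here. RefSeq tables of GRCh38.p14, a patch release of hg38, gave positions and promoters, and 12819 genes (96.8%) were found there. No use of molecular identifiers is stated, so Wilson intervals cover counting error alone, which is smallest in replicate 1. Software was R 4.3.3, DESeq2 1.42.0, edgeR 4.0.16, Python 3.11.15, matplotlib 3.10.9, statsmodels 0.14.6, pandas 2.3.3, scipy 1.17.1 and numpy 2.4.6.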

Additional observations from a re-analysis of the deposited data

How the results depend on the processing

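With no control library and 1 group, no alternative could bear on binding to DDX49. No paired analysis was possible because all samples belong to 1 group. Levels per coding or transcript length were not run, as no lengths were at hand. The number of mitotic genes that differed between replicates was 5 of 38 (19.6% of all genes tested). It was 4 with TMM factors (18.6% of all genes), with DESeq2 size factors (18.5%) and with no count minimum (13.1%), 5 with a summed count of at least 10 (17.1%), 6 of 31 with at least 100 (22.7%) and 3 with totals that leave out DDX49 (19.2%). Leaving out 1 replicate gave 1 to 6, with 1 of 36 without replicate 1 (6.77% of all genes), 6 without replicate 2 (16.6%) and 2 without replicate 3 (5.80%), so the share of all genes called was lower too without replicate 1 or 3. MKI67 passed under both size factor settings, PLK1 with the minimum of 100 and without replicate 2, and RACGAP1 without replicate 2. NCAPD2 passed under each of the 9 alternatives, CCNA2 and ANLN under 7, FOXM1 under 4 and CCNB1 under 3. The distance of the median from all genes was 1.52 with a pseudocount of 5 CPM, 2.29 against all genes of the table and 0.87 against genes of at least 10 CPM, which moves with the genes taken as background. The summed share of counts was 0.802% with totals that leave out DDX49 and 0.623% without MKI67. A CCAAT box was found in 48.8% of the members' promoters in the narrower window, from 100 bases before the start, and in 34.9% on the strand of the gene only, where all promoters had 21.3% and 19.6% and those of replication genes 44.6% and 35.7%. The homology motif was found in 55.8% and 58.1% of them, against 7.37% and 9.70%. The share of NCAPD2 in condensin I counts, an alternative added after seeing the data, was 64.2% to 68.0% when 1 replicate was left out. Whether any difference changed direction under an alternative was not examined. AURKB, AURKA, CDC25C, CENPA, NUF2 and SPC25 have few counts, 0 to 36 per library.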
